A study of Mus musculus with 32 samples.

Results

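The response of wild-type fetal hematopoietic progenitors to interferon gamma (IFNg) was taken from 8 of the 32 libraries of the series, chosen by their titles: 4 libraries of cells given IFNg at 1 ng/ml and 4 of cells given vehicle, each for 4 h. All 8 came from 1 line, hi-77+/+, which carries both copies of the −77 enhancer of Gata2 (genotype Gata2 -77+/+). The line was derived from mouse fetal liver and immortalized with ER-HOXB8, a HOXB8 protein fused to the estrogen receptor that blocks differentiation while estradiol is present, so every group was held in 1 uM b-estradiol with G418 and medium conditioned with stem cell factor. The remaining libraries, which entered the fit for its estimate of the spread, were the same line given Pam3CSK4 (a TLR2 agonist) or both agonists, and the enhancer-deleted line hi-77-/- (Gata2 -77-/-) under the same 4 treatments, 4 libraries a group. Each genotype is a single line, and no label states whether the replicates of a group were grown apart. The p-values therefore measure only the spread between these libraries, which may be technical.

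IFNg is the type II interferon, made mainly by T and NK cells. It binds a receptor of the chains IFNGR1 and IFNGR2, whose kinases JAK1 and JAK2 pass the signal to transcription factors that bind a palindromic element called GAS. The first genes switched on include the transcription factor IRF1, which with other IRFs acts through a different element, the ISRE, on later genes: GTPases that attack the vacuoles of intracellular microbes, antiviral proteins, and the machinery that loads peptides onto MHC molecules. In blood progenitors IFNg is known to alter self-renewal and to favour myeloid output.

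Total RNA depleted of ribosomal RNA was sequenced, and the 8 libraries held 44200000 to 68000000 estimated counts. The level of a gene is given as CPM, its count as a share of the scaled library total, and a change as the fitted log2 fold change with its standard error (SE). A gene is said to have risen or fallen where edgeR's quasi-likelihood test gave a Benjamini-Hochberg adjusted p under 0.05 over all 14869 genes tested. By that rule 35.4% of all genes tested changed, 17.8% up and 17.6% down, while 2.04% rose and 1.14% fell by 2-fold or more, so the shares of each gene group below stand beside these. The median absolute change of the genes called was 0.26 on the log2 scale. The first principal component held 76.5% of the variance and separated the 4 IFNg libraries from the 4 vehicle libraries. One property of the libraries moved with treatment: structural RNA (small nuclear, nucleolar, ribozyme and similar transcripts, and mitochondrial RNA) took 23.96% ± 4.17 (SD, n = 4) of counts with vehicle, from 19.4% to 28.8%, and 15.9% ± 1.87 (SD, n = 4) with IFNg, from 13.3% to 17.7%. The groups did not overlap (exact two-sided permutation p = 0.0286, the smallest that 4 against 4 allows). This share was tested because earlier results of these data had shown it to move with treatment, so the p-value is not independent support. A fit with that share as a covariate called 2794 genes in place of 5265. Of the named genes, 4 of 104 rises and 42 of 79 falls were no longer called in it, and the loss is stated beside each of these that is described below.

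The receptor and the kinases were present before treatment and moved little, whereas Stat2 and Stat3 downstream rose. Ifngr1, the ligand-binding chain, was at 91.4, 93.2, 84.4 and 90.8 CPM with vehicle and 71.6, 82.0, 80.9 and 75.7 CPM with IFNg. It fell by 0.21 ± 0.04 (SE, log2; adjusted p = 0.00012), and the groups did not overlap. Ifngr2, the signalling chain, fell from 26.9 ± 2.06 to 23.2 ± 1.01 CPM (SD, n = 4) with overlapping groups, and its adjusted p was 0.087 with the structural RNA share as covariate. Jak1 was at 110 and 120 CPM, and its log2 fold change of 0.13 ± 0.03 dropped to 0.03 with the covariate (adjusted p = 0.50). Jak2 was at 61.1 and 59.9 CPM and did not pass the test. With the covariate it was called as fallen, at -0.12 on the log2 scale (adjusted p = 0.035). Stat2, a component of the type I interferon complex, was at 9.44, 11.2, 9.81 and 9.51 CPM with vehicle and 32.7, 34.0, 30.9 and 32.3 CPM with IFNg. Stat3, which carries signals of the IL-6 family, rose from 92.2 ± 6.04 to 201 ± 5.94 CPM. In both genes all 4 treated libraries lay above the vehicle libraries. Stat5a and Stat5b, which carry signals of hematopoietic cytokines, fell by 0.10 and 0.12 on the log2 scale. In all, 6 of the 13 genes of the receptor and JAK-STAT chain rose and 5 fell.

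Among the 9 interferon regulatory factors tested, 4 rose and 1 fell. Irf1, the early activator, was at 11.2, 12.1, 10.4 and 11.6 CPM with vehicle and 350, 354, 358 and 351 CPM with IFNg, a log2 fold change of 4.96 ± 0.05 (adjusted p = 5.4e-40). The 4 treated libraries lay within 10 CPM of each other. Irf8, which directs monocyte and dendritic fate, rose from 7.34 ± 0.41 to 121 ± 5.39 CPM (SD, n = 4). Irf7, the amplifier of type I interferon genes, was at 0.985, 0.978, 0.785 and 0.667 CPM with vehicle and 11.7, 11, 11.9 and 13 CPM with IFNg. Irf9, the DNA-binding partner of STAT2, rose from 8.76 ± 0.99 to 56.8 ± 1.28 CPM. Irf2, a competitor of IRF1, was at 11.7 and 13.1 CPM and did not pass the test. Irf3 fell by 0.21 on the log2 scale, which became -0.06 with the structural RNA share as covariate (adjusted p = 0.63). Irf4 had 0 counts in all 8 libraries.

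Feedback genes rose with the activators. Socs1, which blocks the JAK kinases, was at 0.0788, 0.0506, 0.0481 and 0.0715 CPM with vehicle and 4.46, 3.37, 3.86 and 3.46 CPM with IFNg, a log2 fold change of 5.91 ± 0.29 (adjusted p = 2.3e-17). Usp18, which removes ISG15 from proteins and restrains the type I receptor, rose from 0.36 ± 0.09 to 6.80 ± 0.63 CPM. Cish and Socs3, usually induced by STAT5 and STAT3, rose from 0.56 ± 0.18 to 4.72 ± 0.31 CPM and from 1.23 ± 0.05 to 9.51 ± 0.30 CPM. In the list of 18 inhibitors of JAK-STAT signalling 9 rose and 3 fell. The other 5 rises were under 2-fold, and the phosphatase gene Ptpn6 and the ligase genes Pias1, Socs4 and Socs6 did not pass the test. The plot of levels by library shows the contrast between the little-changed receptor and kinase genes and the widely separated STAT, IRF and SOCS genes that rose.

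**Figure D1:**
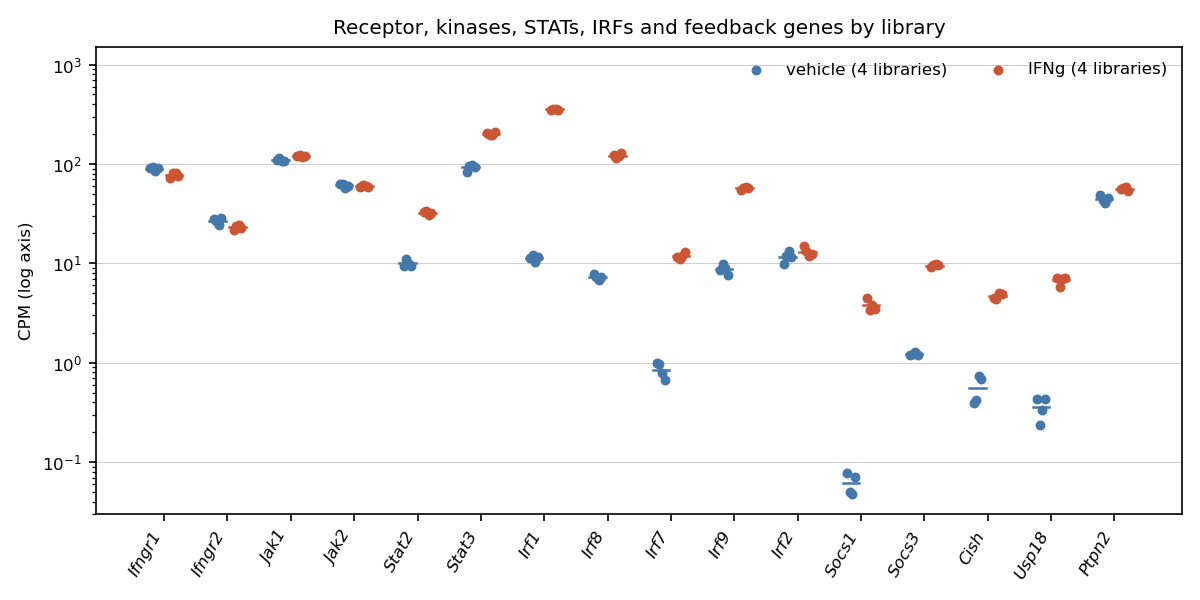
CPM on a log axis for 16 genes of the pathway in each of the 8 libraries (blue, vehicle; red, IFNg), with a line at the mean of each group of 4. Jak2 and Irf2 overlap between groups, while Irf1 goes from 11.3 to 353 CPM and Socs1 from 0.0622 to 3.79 CPM.

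The effector genes with the largest rises were 2 families of GTPases that coat and break the vacuoles holding intracellular bacteria and parasites. Of 16 immunity-related GTPases (IRG) tested, 15 rose, each by at least 2-fold, and Irgq, a distant member, fell by 0.39 on the log2 scale. The median log2 fold change was 7.83, or 7.73 with the 7 genes that had no vehicle count set at their bound, against -0.01 over all genes tested. Those 7 genes passed the filter on low counts only through libraries of other groups. The number of rises and the median therefore depend in part on that filter. Tgtp2 had no count in any vehicle library and 193, 173, 176 and 183 CPM with IFNg. Against a floor of 3 counts over the vehicle group it was at least 12900-fold higher. Tgtp1 likewise had none, and 94.2, 79.1, 78.8 and 90.6 CPM with IFNg, at least 6103-fold higher. These genes lie beside each other and are nearly identical, so the division of reads between them is uncertain. Iigp1 had 1 count over the 4 vehicle libraries and 18715 over the 4 IFNg libraries. Igtp was expressed before treatment, at 3.65, 3.32, 3.37 and 3.12 CPM, and reached 366, 350, 350 and 369 CPM. Irgm1 and Irgm2, regulatory members that keep the other GTPases off the membranes of the cell itself, went from 11.8 ± 0.49 to 483 ± 7.73 CPM and from 1.82 ± 0.33 to 151 ± 2.73 CPM. Per kilobase of effective length, Irgm1 had the highest treated level of the family (252 CPM per kb), followed by Igtp (202) and Tgtp2 (70.3), and Irgm1 also had the highest vehicle level (6.16).

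Of 10 guanylate-binding protein (GBP) genes tested, 7 rose and 3 did not pass the test, with a median log2 fold change of 5.72 (5.66 with 5 genes at their bound). Here too the genes without a vehicle count passed the filter only through other groups. Gbp2 was at 0.118, 0.0843, 0.208 and 0.0953 CPM with vehicle and 66.9, 52.3, 51.2 and 63.3 CPM with IFNg. Gbp7 was at 4.12, 3.17, 3.73 and 4.03 CPM and rose to 162, 150, 144 and 157 CPM. Gbp6 had no vehicle count and 6.42 ± 0.89 CPM with IFNg, at least 457-fold higher, and Gbp5 at 1.21 CPM was at least 85.3-fold higher. Gbp10 and Gbp11 had 6 counts each over the IFNg libraries and none with vehicle, and Gbp8 had 1. Per kilobase, Gbp7 (33.4) and Gbp2 (25.6) stood above Gbp3 (6.13) and the rest with IFNg. GTPase genes of both families share sequence with their copies, so single values depend on how the authors' counting divided shared reads.

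The sequences before these genes are shown because they carry the elements that STAT and IRF factors are known to bind, and because 5 genes of the IRG family hold them in 1 arrangement. Each stretch is the 150 bases before the RefSeq start of the gene (GRCm38.p6, the build called mm10), 5′ to 3′ on the strand of the gene, with GAS (TTCNNNGAA) and the ISRE core (GAAA, any 2 bases, GAAA; either strand) in capitals where they occur. Irf1 stands for the activators, Socs1 for the feedback genes, Gbp7 for the GBP family, and H2-K1, a classical MHC class I gene that did not pass the test, for comparison.
Irf1, chr11:53769864-53770013, plus strand: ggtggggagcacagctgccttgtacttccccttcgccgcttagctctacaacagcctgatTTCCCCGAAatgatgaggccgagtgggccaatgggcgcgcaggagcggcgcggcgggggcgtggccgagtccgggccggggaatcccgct
Socs1, chr16:10785537-10785686, minus strand: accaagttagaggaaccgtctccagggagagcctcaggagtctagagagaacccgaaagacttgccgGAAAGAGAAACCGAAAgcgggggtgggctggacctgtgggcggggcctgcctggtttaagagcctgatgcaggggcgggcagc
Gbp7, chr3:142530186-142530335, plus strand: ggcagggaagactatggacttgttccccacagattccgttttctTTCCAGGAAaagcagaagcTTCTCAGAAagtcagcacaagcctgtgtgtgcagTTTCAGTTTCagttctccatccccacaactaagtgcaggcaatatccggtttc
Igtp, chr11:58199406-58199555, plus strand: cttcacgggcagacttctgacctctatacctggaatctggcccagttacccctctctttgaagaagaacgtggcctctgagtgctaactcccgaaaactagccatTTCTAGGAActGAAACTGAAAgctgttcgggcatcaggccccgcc
Irgm2, chr11:58214827-58214976, plus strand: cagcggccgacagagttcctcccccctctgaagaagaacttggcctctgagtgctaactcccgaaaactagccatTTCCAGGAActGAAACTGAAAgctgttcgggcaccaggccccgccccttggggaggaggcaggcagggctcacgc
Tgtp1, chr11:48992247-48992396, minus strand: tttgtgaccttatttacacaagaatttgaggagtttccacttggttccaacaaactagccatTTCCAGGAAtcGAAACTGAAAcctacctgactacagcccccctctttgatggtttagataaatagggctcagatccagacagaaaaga
Tgtp2, chr11:49064213-49064362, minus strand: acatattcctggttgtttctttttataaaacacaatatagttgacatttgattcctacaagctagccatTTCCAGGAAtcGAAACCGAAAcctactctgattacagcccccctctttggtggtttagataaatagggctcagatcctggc
Gm12185, chr11:48927183-48927332, minus strand: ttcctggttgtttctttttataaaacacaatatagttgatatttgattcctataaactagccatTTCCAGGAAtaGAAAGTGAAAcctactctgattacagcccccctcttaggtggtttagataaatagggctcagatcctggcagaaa
H2-K1, chr17:34000348-34000497, minus strand: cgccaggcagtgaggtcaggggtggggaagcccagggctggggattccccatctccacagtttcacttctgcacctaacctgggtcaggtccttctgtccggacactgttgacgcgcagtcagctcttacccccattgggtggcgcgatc

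The Irf1 stretch held 1 GAS, which began 90 bases before the start. Socs1 held 2 overlapping ISRE cores that began 83 and 77 bases before the start. Gbp7 held 2 GAS, which began 106 and 87 bases before the start, and 1 ISRE core at 53. In Igtp, Irgm2, Tgtp1, Tgtp2 and Gm12185 a GAS was followed after 2 bases by an ISRE core, and the pair began 45, 75, 88, 81 and 86 bases before the start in that order. The joined pattern, a GAS, any 2 bases and an ISRE core, searched on both strands, was found in these 5 promoters and in no other of the 32851 in the table (0.0152%), in windows from 250 bases before to 50 after each start, and all 5 genes rose by at least 16-fold. The pattern was chosen after these promoters had been seen, and the 5 genes are related by duplication, so their shared sequence is not 5 separate observations. The RefSeq starts of Irgm2, Tgtp1 and Gm12185 lie 15359, 1926 and 65044 bases from the GENCODE starts of those genes, against 0 for Igtp and 6 for Tgtp2. The H2-K1 stretch held no exact match to either pattern, which says only that these letters are not in this window. Looser variants of the 2 elements were not searched for, so an element of that kind may be present.

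Across the genome the same letters were counted by size of the response. Only 9920 of 14852 tested gene symbols (66.8%) and 172 of the 303 genes up by 2-fold or more had a promoter entry, below the 80% that a check of a set needs, so the shares are a description of the genes with an entry. GAS was present in 20.9% of the promoters of genes up by 2-fold or more (36 of 172, 95% Wilson interval 15.5% to 27.6%) and in 6.83% of all tested promoters, or 8.30% of all promoters in the table. The ISRE core was present in 29.1% (50 of 172, 22.8% to 36.3%) against 3.19% and 3.44%. Among the 39 genes with an entry that rose by 16-fold or more, 59.0% held an ISRE core and 30.8% a GAS. Genes up by under 2-fold held a GAS in 7.71% and an ISRE core in 3.61%, close to the shares over all tested promoters, and genes down by 2-fold or more in 4.35% and 2.9%. The letters TATAAA, on either strand, were in 17.4% of promoters of genes up by 2-fold or more and 15.9% of those of genes down by 2-fold or more, against 6.89% of all tested promoters and 13.6% of all in the table. By family, the ISRE core was in 4 of 4 GBP promoters with an entry, 8 of 12 IRG promoters, 8 of 14 nucleic acid sensor promoters and 10 of 25 promoters of the virus restriction list. The plot of motif shares shows both shares above the dashed line in the classes up by 2-fold and more.

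**Figure D2:**
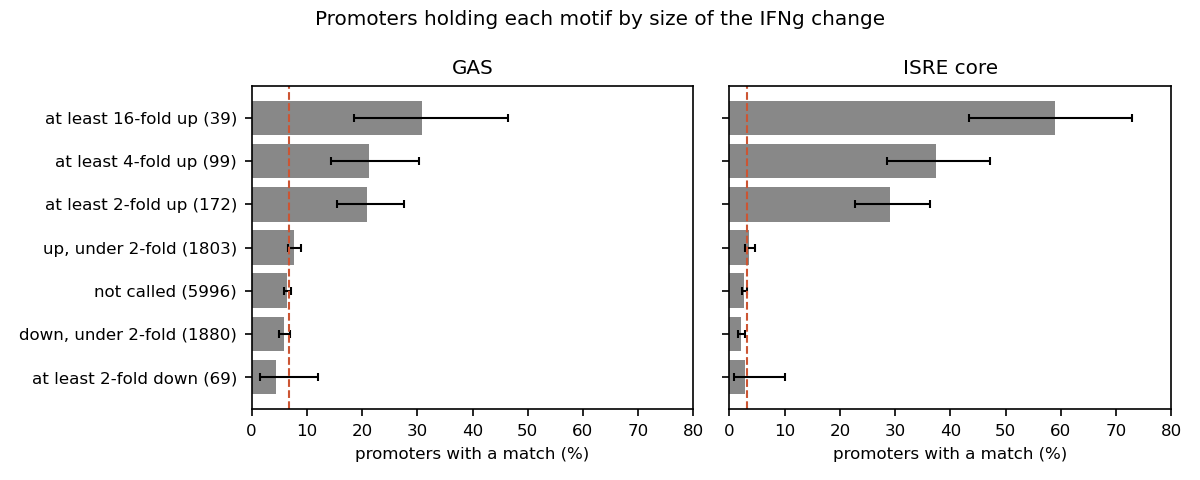
Percent of promoters (250 bases before to 50 after the start) holding GAS or an ISRE core, by size of the IFNg change, with the number of promoters in brackets; bars are shares, whiskers 95% Wilson intervals (counting error only) and the dashed line is the share over all tested promoters. The ISRE share is 59.0% at 16-fold or more and 3.61% among genes up by under 2-fold.

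Many of the genes that rose by 2-fold or more lay close together. Of 303, 126 (41.6%, 95% Wilson interval 36.2% to 47.2%) had the start of another such gene within 100 kb, against 5.43% of all tested genes, and 9 groups held 4 or more of them. Genes that fell by 2-fold or more also had such neighbours, 48 of 167 (28.7%) against 3.63% of all tested genes. Histone genes of the replication-dependent clusters made up 40 of the genes that fell by 2-fold or more, and their part in the 48 was not counted. The largest group of genes that rose, on mm10 chr11:48861968-49135387, holds Irgm1, Tgtp1, Tgtp2, Ifi47, Gm12185, Gm5431, 9930111J21Rik1, 9930111J21Rik2 and the receptor gene Olfr56. There 9 of 10 tested genes rose by 2-fold or more, and the other was Psme2b. On chr3:142493978-142638008 all 5 tested genes did so, Gbp2, Gbp3, Gbp5, Gbp7 and the model Gm43802. On chr11:82951349-83070678, 6 of 7 did so, among them the Schlafen genes Slfn2, Slfn5 and Slfn8, and the other was Slfn9. A group on chr16:35832874-35972605 held Parp14, Parp9, Dtx3l and the model Gm49730. Overlapping models and duplicated copies can take reads from a neighbour, and how far they did so was not tested.

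Antiviral genes rose as groups, though many from very low levels. Of 31 virus restriction factors tested 29 rose and none fell, with a median log2 fold change of 0.90. Rtp4, a chaperone-like restriction factor, was at 15, 15, 13.7 and 14 CPM with vehicle and 62.7, 64.4, 65.8 and 63.2 CPM with IFNg. Cmpk2, a mitochondrial nucleotide kinase, rose from 0.63 to 9.75 CPM, and Xaf1 from 0.22 to 3.94 CPM. Eif2ak2 (PKR) and Adar, which sense and edit double-stranded RNA, rose from 50.8 to 115 CPM and from 40.6 to 93.6 CPM. Mx2 (0.79 to 0.98 CPM) and Ifi27l2a, with 6 and 3 counts, did not pass the test, and Mx1 reached only 0.36 CPM. Of the 8 genes of the oligoadenylate synthetase list tested, 6 rose, led by Oasl2 at 8.34 ± 1.01 CPM against 0.14 ± 0.07. Of the 15 genes of the IFIT, IFITM and ISG15 system, 9 rose. Isg15, a ubiquitin-like modifier, was at 0.0591, 0.0337, 0 and 0.143 CPM with vehicle and 2.53, 2.62, 2.38 and 2.30 CPM with IFNg. Within the IFIT family, Ifit1 rose from 0.10 to 3.36 CPM, whereas Ifit2 (8.30 and 7.35 CPM) and Ifit3 (0.03 and 0.06 CPM) did not pass the test. Ifitm3, which blocks viral entry, rose from 51.4 ± 3.01 to 101 ± 1.77 CPM, and the neighbouring Ifitm2 was at 240 and 242 CPM and did not pass the test.

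Sensors of foreign nucleic acid rose in 13 of 19 cases. Zbp1, the sensor of Z-form nucleic acid, rose from 0.02 ± 0.03 to 5.64 ± 0.41 CPM. Ddx58 (RIG-I) rose from 5.32 to 23 CPM, Ifih1 (MDA5) from 3.97 to 12.9 CPM and Dhx58 (LGP2) from 0.87 to 3.15 CPM, while the adaptor gene Mavs was at 22.5 and 23.3 CPM and did not pass the test. Cgas and Tmem173 (STING) rose by 0.75 and 0.73 on the log2 scale, from 22.1 and 22.9 CPM. Aim2, at 2.5 and 2.29 CPM, did not pass the test, and the endosomal receptor genes Tlr7 and Tlr9 were near 0.1 CPM in both groups. All 7 genes of the interferon-induced PARP list rose. Parp14 was at 6.56, 6.61, 6.57 and 5.72 CPM with vehicle and 92.4, 82.3, 82.8 and 92.0 CPM with IFNg, and its neighbours Parp9 and Dtx3l, which act as a complex, rose by 2.26 and 1.93 on the log2 scale. In all, 6 of 7 Schlafen genes rose, with Slfn8 going from 3.07 ± 0.51 to 24.1 ± 1.12 CPM. In the plot of family members every called member of these antiviral families lies to the right of 0.

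**Figure D3:**
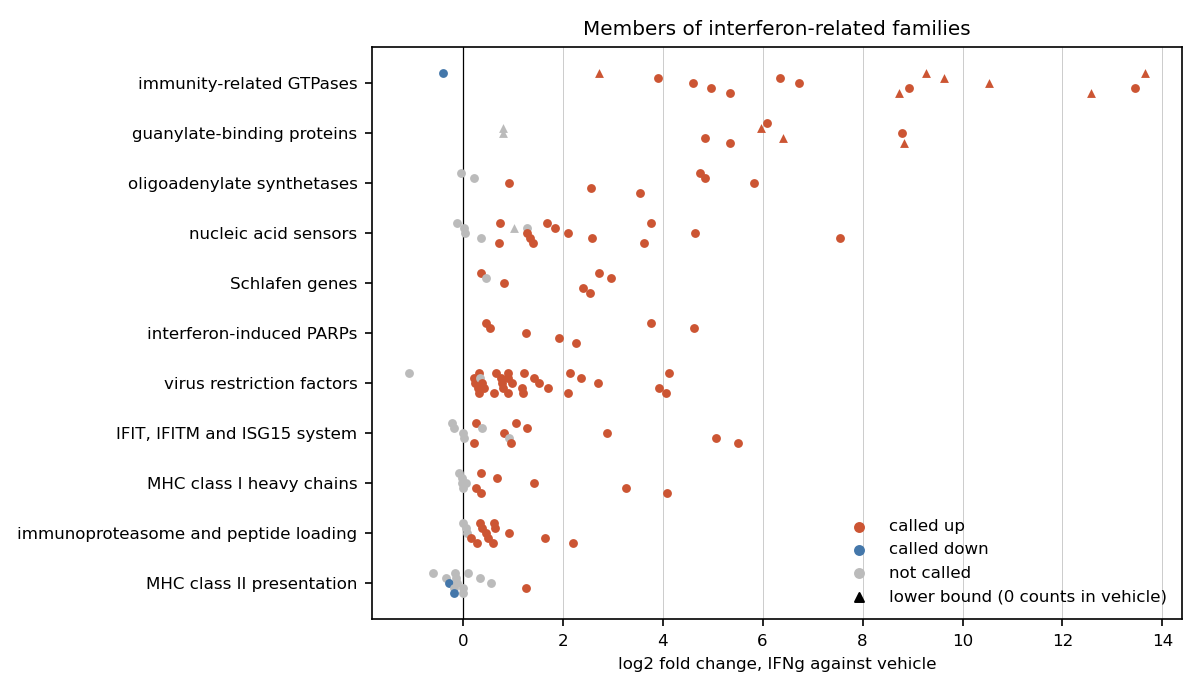
Log2 fold change of each tested member of 11 families, coloured by the call; triangles are lower bounds for genes with no vehicle count, and genes at or under 3 counts in both groups are not drawn. The IRG and GBP members reach beyond 8, most peptide loading genes stay under 1, and the class II genes surround 0.

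Antigen presentation by MHC class I moved unevenly. Nlrc5, the class I transactivator, was at 13.4, 14, 14.4 and 12.8 CPM with vehicle and 142, 122, 123 and 137 CPM with IFNg, a log2 fold change of 3.26 ± 0.05 (adjusted p = 7.1e-33). The classical heavy chain gene H2-K1 was at 186, 183, 186 and 190 CPM with vehicle and 184, 184, 185 and 188 CPM with IFNg. H2-D1 was at 150, 148, 153 and 156 CPM against 145, 143, 144 and 145 CPM, and neither passed the test (log2 fold changes -0.01 ± 0.03 and -0.08 ± 0.03). The nonclassical genes H2-T24 and H2-T23 rose, the first from 0.23 ± 0.04 to 3.87 ± 0.31 CPM and the second from 10.5 ± 0.42 to 28.4 ± 1.49 CPM. B2m, the light chain, rose by 0.35 ± 0.04 on the log2 scale. Heavy chain genes share long stretches of sequence, and H2-Q5, H2-Q6 and H2-Q7 had 0 counts in all 8 libraries, so the values of single members are uncertain. Of the 15 genes of the list 7 rose and none fell, while 1 also fell with RLE or upper-quartile scaling, with DESeq2, or with the structural RNA genes removed.

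The peptide supply genes rose almost throughout, 12 of 15 with none falling and a median log2 fold change of 0.45. Tap1, 1 chain of the peptide transporter, was at 31.7, 33.5, 35.2 and 33.3 CPM and rose to 154, 145, 155 and 161 CPM, while Tap2, the other chain, rose by 0.28 ± 0.07 on the log2 scale. Tapbpl, a peptide editor, rose from 6.23 to 19.5 CPM. The catalytic subunits of the immunoproteasome were already expressed, and rose from 20.1 to 38.2 CPM (Psmb9), from 49.3 to 75.5 CPM (Psmb10) and from 72.8 to 99.6 CPM (Psmb8). The 3 that did not pass the test, Calr, Canx and Pdia3, are general chaperones of the endoplasmic reticulum. MHC class II genes did not follow. Ciita, the class II transactivator, was at 0.0985, 0.0843, 0.0321 and 0.0715 CPM with vehicle and 0.0850, 0.123, 0.118 and 0.0929 CPM with IFNg, with overlapping groups and adjusted p = 0.46. Of 14 class II genes tested only Ctss rose, from 0.16 to 0.37 CPM, and 2 fell. H2-Ab1 was at 0.75 and 0.65 CPM, Cd74 at 0.02 CPM in both groups, and H2-Aa and H2-Eb1 had 3 counts or fewer in each group.

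Many genes of secreted mediators had few or no counts. Of 24 chemokine genes in the annotation 14 were tested and 5 rose, and the other 10 had 0 counts in all 8 libraries. Cxcl10, a ligand of CXCR3, was at 0.532, 0.422, 0.353 and 0.334 CPM with vehicle and 7.86, 7.21, 6.58 and 7.86 CPM with IFNg. The other CXCR3 ligands rose from almost nothing to very little: Cxcl9 had 0 and 13 counts over the groups and Cxcl11 had 1 and 14. Ccl3 rose from 4.40 ± 0.28 to 8.59 ± 0.85 CPM, and Ccl9, the most abundant chemokine mRNA by CPM, was at 537 and 499 CPM and did not pass the test. Of 29 cytokine genes 18 were tested, of which 8 rose and 2 fell. Csf1, the macrophage growth factor, rose from 6.33 ± 0.85 to 18 ± 0.47 CPM, Osm, a cytokine of the IL-6 family, from 7.66 ± 0.08 to 17.6 ± 0.80 CPM, and Lif, of the same family, from 0.08 ± 0.04 to 1.01 ± 0.21 CPM. Tnf was at 8.37, 8.95, 7.76 and 8.91 CPM with vehicle and 14.1, 14.6, 15.6 and 15.5 CPM with IFNg. Il15, which supports NK and memory T cells, went the other way, from 12.7, 11.9, 11.5 and 13.9 CPM to 6.56, 6.33, 7.05 and 6.19 CPM. Ifng, Ifnb1, Il10 and Il12b had 0 counts in all 8 libraries.

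Among 32 receptor genes for cytokines and growth factors 11 rose and 5 fell. The clearest rise at a high level was in the common beta chain of the GM-CSF, IL-3 and IL-5 receptors. Csf2rb was at 86.8, 101, 105 and 92.5 CPM with vehicle and 290, 263, 277 and 275 CPM with IFNg, and its paralog Csf2rb2 rose from 3.86 ± 0.72 to 12.2 ± 0.61 CPM. The partner chains did not rise with them: Csf2ra was at 1.76 and 1.74 CPM, and Il3ra fell from 1.60 to 0.96 CPM, a call lost with the structural RNA share as covariate (adjusted p = 0.19). Il18rap, the accessory chain of the IL-18 receptor, rose from 116 ± 8.46 to 200 ± 6.02 CPM, while Il18r1, the ligand-binding chain, was at 0.16 and 0.08 CPM. Ifnar2 rose by 0.48 and Ifnar1 fell by 0.08 on the log2 scale, the chains of the type I interferon receptor. The receptors that define progenitors moved little, Flt3 from 198 to 191 CPM without passing the test and Kit from 317 ± 26.0 to 292 ± 2.72 CPM (adjusted p = 0.030, with overlapping groups).

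Of 17 genes for costimulation, checkpoints and adhesion 8 rose and 4 fell. Cd274, which encodes the checkpoint ligand PD-L1, was at 1.95, 2.36, 2.12 and 1.53 CPM with vehicle and 13, 12, 12.7 and 12.8 CPM with IFNg. Icam1, the adhesion ligand of LFA-1, rose from 8.79 ± 0.77 to 41.8 ± 1.63 CPM. Vsir, another checkpoint gene, fell from 15.0 to 9.80 CPM, and Cd80 fell from 0.88 to 0.48 CPM. Fcgr1, the high-affinity IgG receptor and a classical marker of IFNg-treated macrophages, rose from 2.22 ± 0.27 to 5.78 ± 0.39 CPM, while Fcgr2b, Fcer1g and Cd68 did not pass the test. In the list of Fc receptors and uptake 2 of 12 rose and 2 fell (16.7% each way, against 17.8% and 17.6% of all genes tested). Fcgr3, at 153 and 138 CPM, and Clec4e fell by 0.15 and 0.22 on the log2 scale. Both calls were lost with the structural RNA share as covariate (adjusted p = 0.11 and 0.85). Ly6a, which encodes the stem cell antigen Sca-1, was at 0.138, 0.0506, 0.112 and 0.0715 CPM with vehicle and 2.21, 2.07, 2.30 and 2.5 CPM with IFNg. Its relative Ly6e was far higher, at 328 ± 14.6 and 343 ± 12.5 CPM, with overlapping groups.

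Genes of cell death changed in both directions, 17 of 33 up and 8 down. Casp4, the sensor of bacterial lipopolysaccharide in the cytosol, rose from 0.27 ± 0.14 to 1.64 ± 0.25 CPM and Casp1 from 3.90 ± 0.98 to 7.26 ± 0.61 CPM. Survival genes rose as well, with Bcl2l1 going from 21.3 ± 0.79 to 41.3 ± 2.91 CPM and Mcl1 from 133 to 168 CPM. Bbc3 (PUMA), a killer of the BCL-2 family, fell by 0.87 on the log2 scale, or by 0.56 with the structural RNA share as covariate (adjusted p = 0.075). Mlkl, which executes necroptosis, rose by 0.52 on the log2 scale, and its activator Ripk3 did not pass the test. Of 19 antimicrobial genes 6 rose and 5 fell. The apolipoprotein L genes Apol6 and Apol9b went from 0 and 2 counts to 16 and 80, Lap3 and Wars rose from 92.6 to 137 CPM and from 84.4 to 114 CPM, and Lyz2 (lysozyme) fell from 16.1 ± 2.69 to 9.31 ± 1.61 CPM. Nos2, the nitric oxide synthase of activated macrophages, had no count in the 8 libraries, nor did Ido1, Ido2 and Arg1. In the complement list 5 of 11 rose, C4b from 0.02 to 1.06 CPM and Cfb from 3 to 106 counts, and 4 fell.

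Targets of NF-kB showed no common direction, with 8 of 30 up and 5 down. Tnfaip2 was at 24.7, 26.6, 25.1 and 28.4 CPM and rose to 73.4, 70.2, 73.5 and 69.7 CPM. The feedback genes Nfkbia and Tnfaip3 fell from 8.48 to 5.71 CPM and from 2.09 to 1.34 CPM, and the subunit genes Rela, Nfkb1, Nfkb2, Rel and Relb did not pass the test. The immediate-early genes changed in both directions. Atf3, a stress-induced repressor, rose from 0.11 ± 0.10 to 3.02 ± 0.19 CPM, Egr2 from 2.64 ± 0.34 to 20.5 ± 2.43 CPM and Zfp36, which destabilizes cytokine mRNAs, from 2.18 to 6.27 CPM. Among the AP-1 genes, Fosb was at 1.32, 1.18, 2.12 and 1.81 CPM with vehicle and 0.510, 0.633, 0.500 and 0.518 CPM with IFNg, and Fos and Jun fell by 1.09 and 0.60 on the log2 scale. Fosl1 rose by 0.50, and Junb, Jund and Fosl2 did not pass the test. Fosb and Fos still fell with the structural RNA share as covariate, by 1.19 and 0.91. Over the list of 34, 13 rose and 7 fell.

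Transcription factors of the myeloid lineages rose in 12 of 30 cases and fell in 5. Batf2, a partner of IRF1 in activated macrophages, had 3 counts over the vehicle libraries and 666 over the IFNg libraries. Spi1 (PU.1) and Gfi1 did not pass the test. Cebpe, needed for granulocyte maturation, was at 12.4, 10.6, 14.3 and 17.4 CPM with vehicle and 8.09, 6.98, 6.64 and 8.36 CPM with IFNg, and with the structural RNA share as covariate its adjusted p was 0.058. Cebpd fell from 5.11 ± 1.08 to 2.76 ± 0.27 CPM. Bcl6, a repressor, was at 0.729, 0.944, 1.11 and 1.31 CPM with vehicle and 0.106, 0.193, 0.191 and 0.199 CPM with IFNg, a log2 fold change of -2.51 ± 0.25 that was the same to 2 decimals with the covariate. Of 25 stem and progenitor transcription factors 3 rose and 11 fell, and 2 and 6 did so with the covariate. Erg rose from 46.8 ± 2.43 to 72.0 ± 2.46 CPM and Lmo2 from 110 to 135 CPM. Meis1 was at 33.0, 35.4, 36.0 and 33.7 CPM and fell to 27.8, 27.2, 27.8 and 27.8 CPM. Gata2 itself was at 35.1, 40.4, 54.7 and 43.4 CPM with vehicle and 39.9, 36.2, 38.0 and 40.4 CPM with IFNg, with overlapping groups and adjusted p = 0.13. It was called as fallen in 2 of 21 alternative fits, without vehicle library 1 and without vehicle libraries 1 and 4. Its log2 fold change ranged from -0.30 to -0.04 over the fits.

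The housekeeping programmes moved by small amounts. Ribosome biogenesis genes rose in 23 of 30 cases with none falling (20 with the structural RNA share as covariate, and 21 up and 1 down with upper-quartile scaling), by a median of 0.22 on the log2 scale. Noc4l, a factor of the small subunit, was at 59.6, 63.6, 66.1 and 65.1 CPM and rose to 103, 98.7, 100 and 104 CPM, and the helicase gene Ddx21 rose from 456 ± 12.2 to 587 ± 16.7 CPM. In all, 12 of 23 genes of cholesterol synthesis and uptake rose and 4 fell, among the latter the exporter genes Abca1 and Abcg1. Hsd17b7 rose from 21.7 to 35.5 CPM, and Abcg1 fell from 10.3 ± 0.57 to 6.45 ± 0.57 CPM. Of 21 glycolysis genes 5 rose, led by Hk2 from 110 ± 3.95 to 170 ± 8.29 CPM, and 2 fell. With upper-quartile scaling 3 rose and 5 fell, so this list has no stable direction. Of 40 cell cycle genes 10 rose and 12 fell, none by 2-fold. Ccnd2 rose by 0.45 on the log2 scale and the inhibitor gene Cdkn1b fell from 25.3 ± 1.07 to 16.6 ± 0.60 CPM, while Mki67 was at 697 and 710 CPM. In the amino acid and stress list 9 of 23 rose and 5 fell, with Trib3 going from 1.90 to 3.10 CPM and Ddit4 from 9.05 ± 1.13 to 5.11 ± 0.43 CPM.

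**Figure D4:**
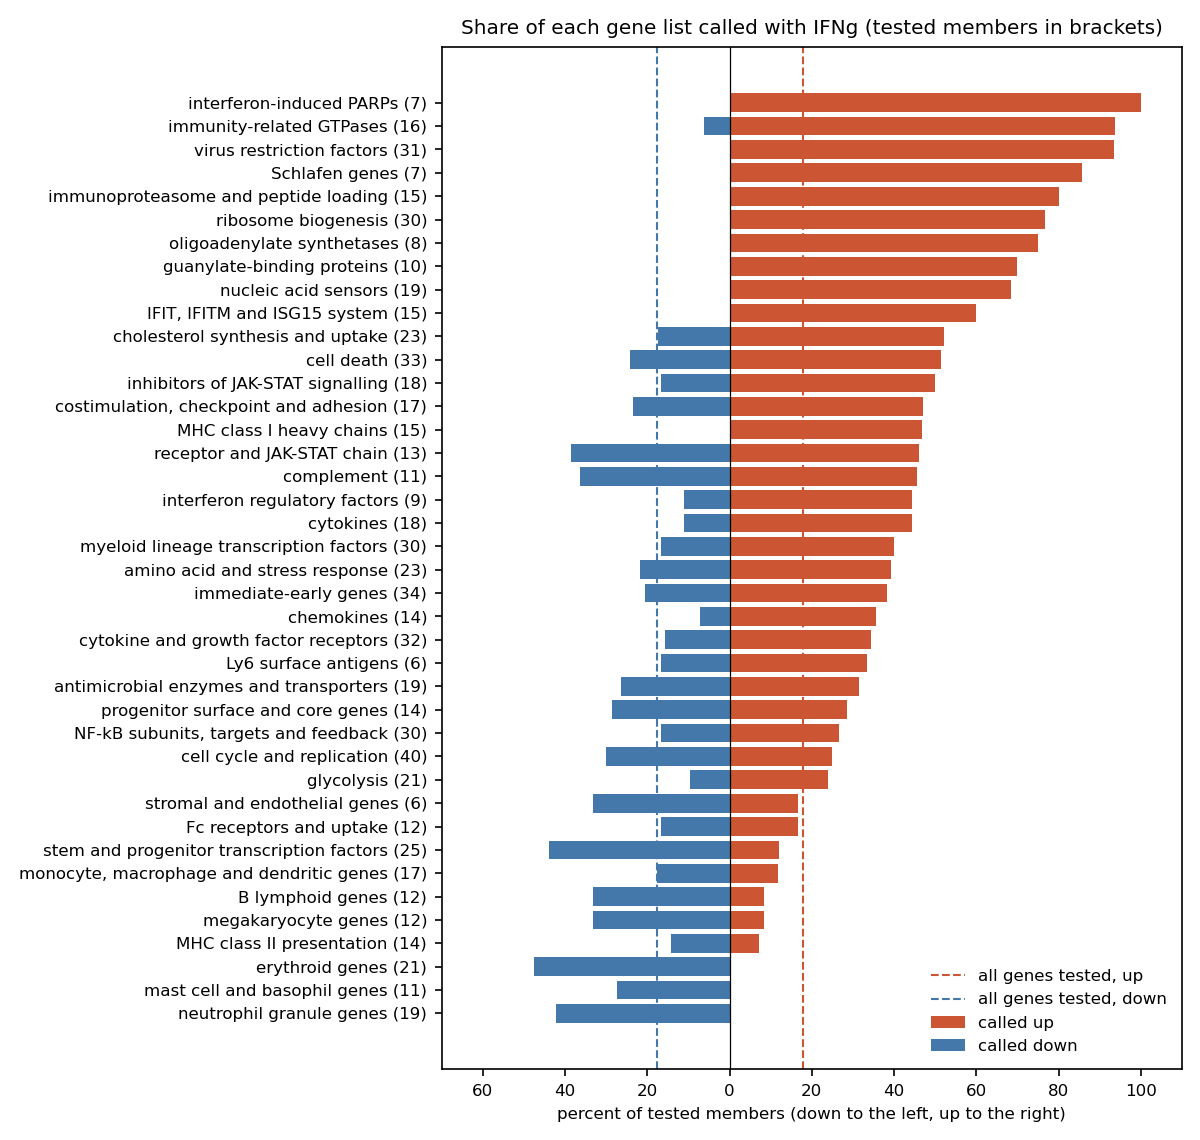
Percent of the tested members of each gene list called up (red, right) or down (blue, left), with dashed lines at the shares over all genes tested (17.8% and 17.6%); lists with under 6 tested members are left out. The interferon families and ribosome biogenesis extend right, and the erythroid, mast cell and neutrophil granule lists extend left only.

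The lineage lists bear on whether the labelled cell type held during treatment. The progenitor genes Cd34 (1401, 1379, 1255 and 1374 CPM with vehicle, 1306, 1365, 1348 and 1316 CPM with IFNg) and Myb (581 and 604 CPM) did not pass the test. Their list, with Ptprc, Kit and Spi1 present, summed to 5298 to 5432 CPM with vehicle and 5041 to 5249 CPM with IFNg, without overlap. Of its 14 tested genes 4 rose and 4 fell (57.1% called, against 35.4% of all genes tested), among them Ly6a and Ptprc up and Kit down. Of 21 erythroid genes 10 fell and none rose, Hbb-bs from 61.2 ± 4.75 to 40.5 ± 3.77 CPM, and 3 fell with the structural RNA share as covariate. Of 19 neutrophil granule genes 8 fell and none rose, Camp from 10.7 ± 1.67 to 7.12 ± 0.90 CPM and Mpo from 2410 ± 59.0 to 2177 ± 114 CPM, and 1 fell with the covariate. In bulk RNA, fewer cells of a type and less RNA per cell cannot be told apart. Mast cell and megakaryocyte lists fell in 3 of 11 and 4 of 12 cases, and in 2 and 0 with the covariate. In the monocyte, macrophage and dendritic list 2 of 17 rose and 3 fell. Lyz2, Cx3cr1 and Itgam fell by 0.78, 0.71 and 0.20 on the log2 scale, Bst2 rose by 0.25, and Mpeg1 rose. The call of Itgam, whose groups overlapped, was lost with the covariate (adjusted p = 0.32). The level of Mpeg1, which encodes a pore-forming protein of phagocytes, went from 3.41, 3.88, 3.48 and 4.19 CPM to 21.3, 21.2, 21.7 and 23 CPM, whereas Csf1r was at 0.16 and 0.13 CPM and Adgre1 at 20.9 and 19.2 CPM, neither passing the test. Of 12 B lymphoid genes tested 1 rose and 4 fell, Rag2, the recombinase gene, from 26.6 ± 3.07 to 18.2 ± 0.13 CPM. Ebf1, a B lineage transcription factor, rose from 30.9 to 34.5 CPM, a call lost with the covariate (adjusted p = 0.976). The stromal and endothelial list summed to 73.0 to 79.7 CPM with vehicle and 64.8 to 67.4 CPM with IFNg. In it Col3a1 and Cdh5 had 0 counts in all 8 libraries, but Thy1 was at 38.8 and 36.1 CPM. The fall of Thy1, by 0.10 on the log2 scale, was not called with the covariate (adjusted p = 0.33). Pdgfrb fell from 35.4 to 26.7 CPM. In the hepatocyte list Alb and Ttr had 0 counts and Trf was at 20.5 and 18.7 CPM, and in the T and NK list Cd3e and Ncr1 had 0 counts and Lck rose from 3.62 to 4.99 CPM. The part of such cells in the results was not tested.

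Genes in none of the lists were ranked by rise at 5 CPM or more, among named genes without overlap. The largest rises were found in Serpina3f, Gvin1, Tubb3, Pim1, Nod1, Tgm1, Ggct, Gdap10, Tagap, Arid5a, Raph1 and Rnf213. Gene models known by a number, accession or clone name were left out, and 84 of them outside the lists rose by 2-fold or more. Serpina3f, a serine protease inhibitor, had no vehicle count and 6.97, 6.92, 6.89 and 6.73 CPM with IFNg, at least 490-fold higher. Tubb3, a tubulin gene best known in neurons, was at 4.59, 4.42, 5.10 and 5.65 CPM with vehicle and 146, 135, 142 and 146 CPM with IFNg, a log2 fold change of 4.86 ± 0.08 (adjusted p = 2.0e-31). Gvin1, a very large interferon-induced GTPase, rose from 1.08 ± 0.34 to 74.6 ± 6.18 CPM. Pim1, a survival kinase known as a STAT target, rose from 15.4 ± 1.05 to 129 ± 6.15 CPM, and Nod1, a sensor of bacterial peptidoglycan, from 2.04 ± 0.12 to 15.9 ± 1.18 CPM. Arid5a, which stabilizes inflammatory mRNAs, and Rnf213, a large ubiquitin ligase, rose by 1.87 and 1.59 on the log2 scale. Of the 303 genes up by 2-fold or more 220 were protein coding, 213 were under 1 CPM with vehicle and 133 were still under 1 CPM with IFNg. Their levels summed to 1305 to 1377 CPM with vehicle and 6634 to 7014 CPM with IFNg.

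The largest falls at that level among named genes without overlap, gene models known by an accession or clone name being left out, were of other kinds. They were in Rmrp and Rpph1, the RNAs of RNase MRP and RNase P, and in histone genes of the Hist1 cluster, whose mRNAs lack a poly(A) tail. With the structural RNA share as covariate Rmrp was at -0.95 on the log2 scale (adjusted p = 0.121) and Rpph1 at -0.59 (adjusted p = 0.175), and neither passed the test. Both RNAs are counted in that share, so this fit cannot decide on their falls. Hist1h4a was at 143, 77.9, 250.4 and 246 CPM with vehicle and 48.1, 47.9, 48.2 and 65.9 CPM with IFNg, a log2 fold change of -1.77 ± 0.36 (adjusted p = 0.00045). The groups did not overlap, but the highest vehicle library was more than 3 times the lowest. Of 64 tested genes of the replication-dependent histone clusters, a group chosen after its values were seen, 62 fell, and the summed level was 8993, 6612, 11317 and 11824 CPM with vehicle and 5328, 5048, 5426 and 5764 CPM with IFNg. With the structural RNA share as covariate 9 of 64 fell, and Hist1h4a was at -0.84 (adjusted p = 0.12). Without vehicle libraries 1 and 4, whose structural RNA shares were the highest, 58 of 65 fell. Of the structural RNA genes, whose summed share fell as given above, 41 of 62 tested were down and 1 up. A fall with tight libraries, named after its values were seen, was that of Ccng2, the cyclin G2 gene, linked to cell cycle arrest, at 17.0, 16.5, 15.2 and 16.6 CPM with vehicle and 6.67, 7.15, 6.21 and 6.23 CPM with IFNg (log2 fold change -1.31 ± 0.06). Depp1 and Tmem119, named likewise, fell from 8.97 ± 0.31 to 4.50 ± 0.12 CPM and from 25.9 ± 1.08 to 13.8 ± 1.12 CPM.

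**Figure D5:**
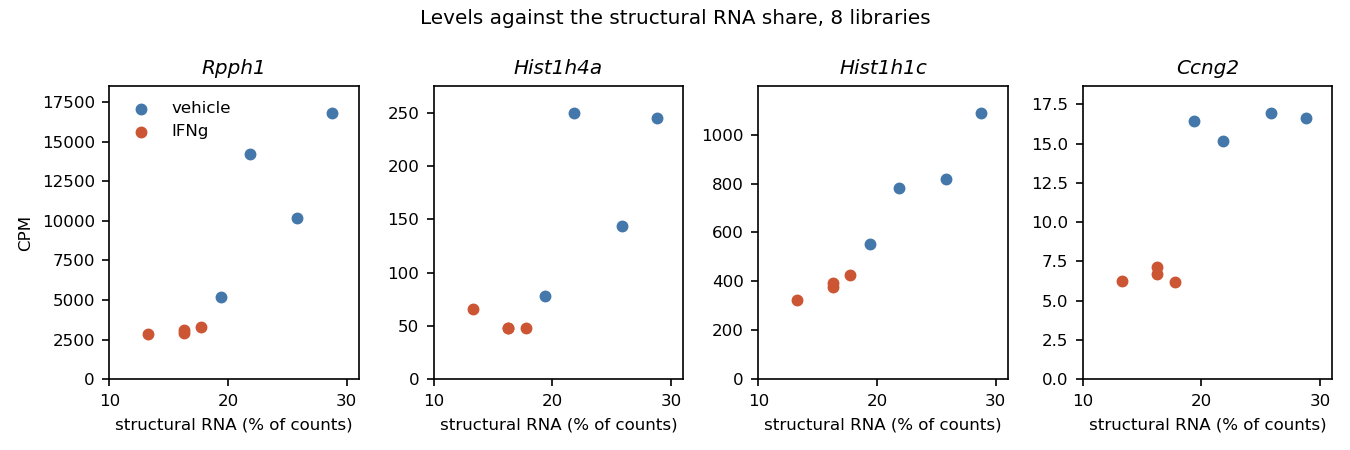
CPM of 4 genes (linear axes from 0) against the structural RNA share of the library, for 4 vehicle (blue) and 4 IFNg (red) libraries. The IFNg libraries hold both the lower shares and the lower levels of all 4 genes, and Ccng2 is at 15.2 CPM or more in every vehicle library and at 7.15 CPM or less in every IFNg library.

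The response of the wild-type line was set against that of the enhancer-deleted line, in which Gata2 was at 7.52 CPM with vehicle and 6.58 CPM with IFNg. The difference between the responses passed the test for 245 genes, 1.65% of those tested. Of the genes up by 2-fold or more in wild-type cells, 28 rose less and 27 rose more in the deleted line by that test. Nlrc5 rose from 13.7 to 131 CPM in wild-type cells and from 74.3 to 252 CPM in the deleted line, and its response was larger in wild-type cells by 1.5 ± 0.07 (SE, log2; adjusted p = 3.1e-17). Irf1, Irf8 and Irf9 had larger responses in wild-type cells by 0.51, 0.62 and 0.55, from lower vehicle levels than the 22.5, 17.8 and 12.2 CPM of the deleted line. The responses of Cxcl10 and Ly6a were smaller in wild-type cells by differences of -2.07 ± 0.27 and -2.92 ± 0.56, with the deleted line reaching 13.5 and 4.30 CPM. Those of Stat2 and Cd274 differed by -0.52 and -0.69. For Ifngr1 the difference was 0.25, its level in the deleted line going from 105 to 75.7 CPM. For Socs1, Fcgr1, Jak1, Jak2, Ifngr2, Ciita and Gata2 the difference did not pass the test.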

How the data were processed

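Gene-level estimated counts were used as the authors deposited them, 1 table per library, made with STAR 2.5.2b and RSEM 1.3.0 on mm10 per the submitters' processing notes. Libraries were stranded total RNA after rRNA reduction, per the labels' protocols. The deposited effective lengths served only for levels per kilobase; the deposited TPM and FPKM values were not used. Estimated counts were rounded (11.1% of values above 0 were over 1e-06 from a whole number). Names came from GENCODE vM21, which matched 55394 of 55487 gene IDs.

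All 32 libraries in 8 groups were fitted with edgeR 4.0.16 (TMM scaling, filterByExpr, robust quasi-likelihood test, R 4.3.3), which tested 14869 genes and removed 40618. The filter used all 8 groups, so a gene could pass only through groups where it was high. Genes were called at a Benjamini-Hochberg adjusted p under 0.05. DESeq2 1.42.0 and limma 3.58.1 (voom) were alternatives, beside other scalings, filters, sample sets, a replicate block, a structural RNA covariate and leaving out each library. The pipeline was tested on simulated data. With about 44200000 to 68000000 counts a library, the common biological coefficient of variation was 7.22%. The members and lists were chosen with earlier results of these data known. Genes were named by rule: 17 pathway genes, and the 12 largest rises and falls at 5 CPM or more outside the lists without overlap. Gene models known by a number, accession or clone name were left out of the latter. Also named were up to 3 genes each way per list at 1 CPM or more (2 for cell type lists), and other list members as examples. Results for a few of these genes are not reported here. Promoters are RefSeq's (GRCm38.p6).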

Additional observations from a re-analysis of the deposited data

Results flagged for a closer look

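In groups of 4 libraries, a library was singled out where its gap to the nearest other passed Dixon's 95% critical value as a share of the group's range. This was met by 23 of the 372 sets of values tested, and chance gives about 1 in 20. Among the vehicle libraries the ratio was 1 for Batf2 and for Iigp1, each with counts in a single library, 0.906 for Cmpk2, 0.87 for Itgb2, 0.901 for Ly6d, 0.833 for Oasl2, 0.945 for Parp14 and 0.876 for Slc16a3. Among the IFNg libraries it was 0.916 for Bcl6, 0.925 for Casp4, 0.891 for Cx3cr1, 0.903 for Cyba, 0.907 for F2r, 0.95 for Fos, 0.868 for Fosb and 0.873 for Gsdme. It was 0.985 for Hist1h4a, 0.83 for Hist1h4c, 0.88 for Hp, 0.975 for Oasl2, 0.891 for Slfn5, 0.869 for Sod2 and 0.877 for Usp18.

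The IFNg response of 9 pathway genes differed between the lines by edgeR's test of the difference (wild-type minus enhancer-deleted log2 fold change). It was larger in wild-type cells for Nlrc5 (1.5), Irf8 (0.618), Irf9 (0.546) and Irf1 (0.511). For Ifngr1, which fell, the difference was 0.254. It was smaller in wild-type cells for Stat2 (-0.524), Cd274 (-0.686), Cxcl10 (-2.07) and Ly6a (-2.92).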

How the results depend on the processing

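Of the 303 genes up by 2-fold or more 213 were under 1 CPM with vehicle, and the effect of depth was not tested. With the structural RNA share as covariate 2794 genes were called, 2448 of them also called without it, and 48 fell by 2-fold or more against 169; the cause was not tested. A test against a 1.2-fold change, which asks for more than any change, called 977, with 97 down by 2-fold or more. That count was 91 with a stricter filter, which tests fewer genes, and 107 with the 8 libraries fitted alone, which leaves fewer samples. DESeq2 called 406 genes for the genotype difference against 245. Leaving out each library in turn gave 4305 to 5339 calls, and a structural RNA difference of -9.59 to -6.46 percentage points (exact permutation p = 0.0571, the smallest 3 against 4 allows). Without vehicle libraries 1 and 4, chosen after seeing the data, 4016 genes were called. The ISRE core share was 37.4% at a 4-fold threshold, and 33.7% of induced genes had an induced neighbour within 50 kb. No named gene reversed, and 109 of 183 called kept their call under every alternative run. Gata2 and Jak2, not called in the main fit, were called as fallen in 2 and 1 of 21 alternatives. Same-numbered libraries did not deviate together (correlations -0.56 to 0.14 over 8399 genes), so the numbers do not pair them; a replicate block called 5190 genes, with 258 for the genotype difference, and 2 named calls were lost.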
